A study of Mus musculus with 22 samples.

Results

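The change in gene expression between postnatal day 6 (P6) and postnatal day 23 (P23) was measured in back skin of DN-CLIM mice, from 3 arrays at P23 and 5 at P6. These were the 8 of 22 arrays whose titles name DN-CLIM skin of these ages. DN-CLIM (K14-DN-Clim) mice carry a transgene for a dominant-negative form of CLIM, the nuclear cofactors also called Ldb that bind LIM domain proteins. The keratin 14 promoter drives the transgene, which places it in basal keratinocytes, so cells such as those of muscle and the immune system do not express it themselves. Which follicle cells express it was not tested. All mice were of the CB6F1 strain. The series also holds 3 DN-CLIM arrays at P14, 3 wild-type littermate arrays at each of P23 and P14, and 5 wild-type littermate arrays at P6, which are used below to place the change in time and to set it beside the change without the transgene. The submitters describe P6 and P14 as stages of the first follicle growth and P23 as the first telogen, with 3 to 5 mice per genotype and age. Which mouse or mice gave the RNA of an array is not stated, so the p-values measure the spread between these arrays, which may be technical. RNA was taken with TRIzol and RNeasy columns, labelled with biotin by in vitro transcription and read in 1 colour, and the deposited values are MAS5 signals, on which all levels below are given.

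In mouse back skin the first hairs are made in a synchronous wave. During growth, matrix cells at the base of the follicle divide and become the keratin-packed hair shaft and the inner root sheath that guides it. In telogen the lower follicle is gone, matrix division has stopped, and stem cells rest in the bulge beside a small dermal papilla. Over the same weeks the fetal growth programme of the young animal winds down, the skin muscle under the dermis matures and the resident immune cells fill in.

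Markers of fibroblasts and of suprabasal keratinocytes gave strong signals at both ages. Summed signals of fibroblast markers were 75800 to 84200 at P23 and 71100 to 83600 at P6, and those of keratinocyte markers were 33700 to 39300 at P23 and 71600 to 101000 at P6. The keratinocyte sums include the basal keratins Krt14 and Krt5, whose probe sets were too dim to be tested and added little to the sums. Krt14 read 28.7 to 70.2 at P23 and 11.9 to 79.8 at P6, and Krt5 read 14.9 to 27.2 at P23 and 46 to 158 at P6. Krt15 was dimmer still, so these probe sets give no measure of basal keratinocytes. Lhx2, H19 and Ccnb1 were not analysed here. Array medians lay between 7.56 and 7.80 (log2). The share of summed signal in the top 20 probe sets was 4.38 to 4.57% at P23 and 7.22 to 8.93% at P6. Replicate 5 at P6 stood furthest from its group, with a mean correlation of 0.933 with the other P6 arrays. Xist, the RNA of the inactive X chromosome, read 967, 13.9 and 7.41 at P23 and 544, 318, 10.8, 577 and 314 at P6, so 1 of the 3 P23 arrays and 4 of the 5 P6 arrays had a high signal. With that class as a covariate, 3274 probe sets passed in place of 3406.

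Of 6211 probe sets tested, 3406 (54.8%) differed between P23 and P6 at an adjusted p under 0.05 in limma, the test used throughout. Higher at P23 were 1657 (26.7%) and lower were 1749 (28.2%). By at least 2-fold, 507 (8.16%) were higher and 496 (7.99%) lower. With 1 probe set for each of 4900 genes, 55.5% passed, 1315 (26.8%) rose, 1405 (28.7%) fell, 398 (8.12%) rose at least 2-fold and 386 (7.88%) fell at least 2-fold. All P23 arrays lay above all P6 arrays for 25.6% of genes and below them for 26.1%. These shares are the background for the counts of each gene list. The median log2 change over all probe sets tested was 0.0011. In whole skin, fewer cells of a type and less RNA per cell cannot be told apart.

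**Figure D1:**
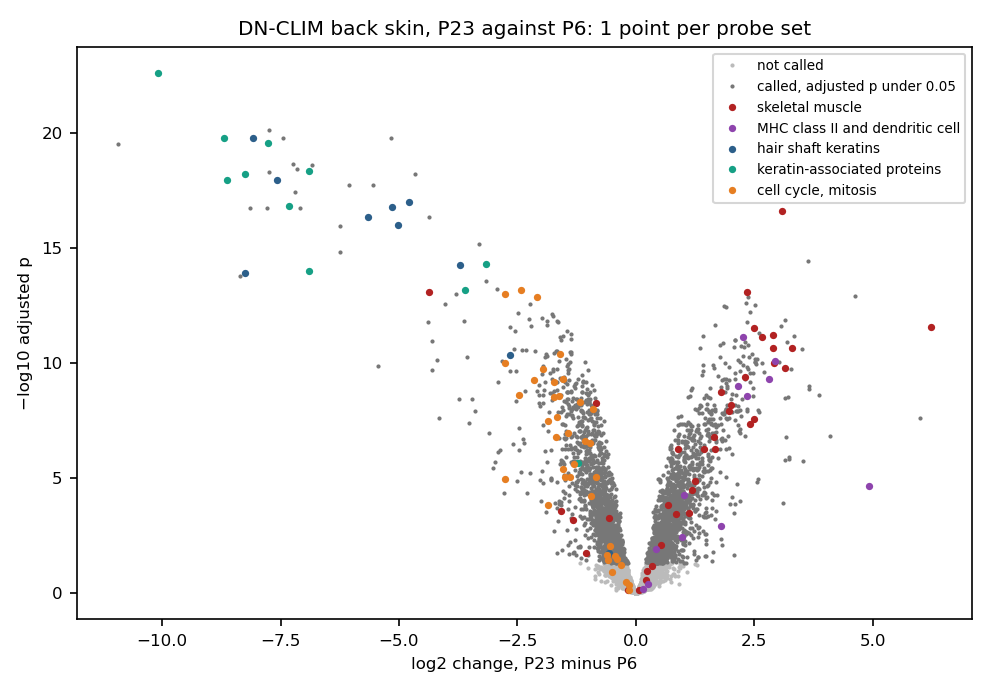
Each point is 1 of the 6211 probe sets tested, with the log2 change (P23 minus P6, DN-CLIM skin) on the x axis and the negative log10 of the limma adjusted p on the y axis. Dark grey points passed an adjusted p under 0.05, light grey points did not, and coloured points are the members of 5 gene lists, 1 probe set per gene. Hair shaft keratins and keratin-associated proteins lie at the far left, mitosis genes to the left of 0, and most muscle and MHC class II genes to the right.

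Genes that build the hair fibre and its sheath made up most of the largest falls. All 10 hair shaft keratins tested fell (median log2 change -5.08), as did all 11 keratin-associated proteins, the matrix in which shaft keratins are embedded (median -7.32), and 9 of 10 inner root sheath genes (median -4.44). None of the 3 lists had a member that rose. The 15 largest falls were ranked among genes that passed and had no overlap between ages. Those other than Fbp1, Crym and the predicted genes Gm10228 and Gm10229 were keratins or keratin-associated proteins of the follicle. These families hold close relatives, and probe sets may share signal between members, which was not tested.

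Krt25, a keratin of the inner root sheath, had the largest fall, with signals of 9.83, 14 and 11.5 at P23 and 19457, 22820, 21093, 25305 and 25617 at P6. All 3 P23 arrays lay below all 5 P6 arrays, which the ranking required. The log2 change was -10.93 (SE 0.24, adjusted p = 2.86e-20). The P23 signals are near the floor of the array and no detection call was used, so such sizes are nominal, and with 50 added to each signal the log2 change was -8.53. Krt31, an acidic keratin of the hair cortex, had signals of 123, 85.3 and 76.6 at P23 and 14846, 18917, 15196, 16224 and 25736 at P6 (log2 change -7.58, SE 0.20, adjusted p = 1.02e-18). Krt83, a basic hair keratin, had signals of 36.5, 30.8 and 36.4 at P23 and 6834, 9626, 10313, 8688 and 12136 at P6 (log2 change -8.08, SE 0.17). The larger signal was 191-fold the smaller for Krt31 and 272-fold for Krt83, lower at P23. Krtap8-1, a keratin-associated protein rich in glycine and tyrosine, had signals of 87.6, 99.6 and 62.5 at P23 and 20838, 26506, 19669, 23754 and 36329 at P6 (log2 change -8.25, SE 0.21). Krtap19-5 had signals of 4.57, 4.39 and 5.43 at P23 and 4285, 5920, 4930, 4978 and 6137 at P6 (log2 change -10.09, SE 0.14, and -6.58 with 50 added).

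The falls came after P14. Median log2 changes from P6 to P14 were 0.94 for shaft keratins, 0.74 for keratin-associated proteins and 0.55 for inner root sheath genes, and from P14 to P23 they were -5.98, -8.50 and -5.62. Krtap9-1 was at 61885, 50494 and 50935 at P14, above its P6 signals of 18806, 19002, 17784, 18470 and 20925, and at 55.2, 31.8 and 54.6 at P23. Padi3, the enzyme that citrullinates trichohyalin in the sheath, had signals of 49, 24.8 and 24.3 at P23 and 1888, 2408, 2245, 2693 and 2525 at P6, with 5492, 3307 and 4206 at P14. Gata3 was the inner root sheath gene that did not pass (log2 change -0.10, adjusted p = 0.472).

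Promoters of 3 of these genes were printed because the 3 genes fall together and each holds the same motif near the start. The 3 below cover 250 bases before to 50 after the RefSeq gene start (GRCm38.p6), with TATAAA in capitals: Krt31 at chr11:100050502-100050801 on the minus strand, Krt25 at chr11:99322902-99323201 on the minus strand, and Krtap8-1 at chr16:89487903-89488202 on the minus strand.
Krt31: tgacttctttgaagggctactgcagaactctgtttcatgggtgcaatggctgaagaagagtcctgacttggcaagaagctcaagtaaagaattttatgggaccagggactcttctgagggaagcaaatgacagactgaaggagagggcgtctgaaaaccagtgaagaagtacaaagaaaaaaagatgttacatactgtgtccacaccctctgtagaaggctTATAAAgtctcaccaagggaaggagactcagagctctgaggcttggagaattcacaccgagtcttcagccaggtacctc
Krt25: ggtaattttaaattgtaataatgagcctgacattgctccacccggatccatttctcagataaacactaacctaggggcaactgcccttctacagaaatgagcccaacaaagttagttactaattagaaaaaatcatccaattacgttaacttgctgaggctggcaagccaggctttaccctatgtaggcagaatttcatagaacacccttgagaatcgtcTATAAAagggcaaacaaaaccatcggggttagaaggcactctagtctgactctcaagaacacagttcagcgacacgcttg
Krtap8-1: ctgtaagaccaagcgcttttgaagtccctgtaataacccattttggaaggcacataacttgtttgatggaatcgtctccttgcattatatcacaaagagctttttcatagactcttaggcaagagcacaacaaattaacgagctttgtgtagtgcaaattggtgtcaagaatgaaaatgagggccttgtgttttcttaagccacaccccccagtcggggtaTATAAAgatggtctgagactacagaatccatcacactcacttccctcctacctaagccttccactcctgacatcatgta
The motif starts 29, 30 and 29 bases before the start. It was found, on either strand, in 5 of 6 shaft keratin promoters (83.3%) and 8 of 9 keratin-associated protein promoters (88.9%) of tested members with a promoter in the table, against 13.6% of all 32851 mouse promoters. These shares count a match anywhere in the stretch, and inner root sheath promoters were not counted. A match is a description of these letters and not of a factor bound there.

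Most regulators of the hair matrix fell with the structural genes. Of 13 tested, 9 fell and 0 rose (median log2 change -1.46). Msx2, a homeobox factor of the matrix and shaft, had signals of 9.76, 10.5 and 13.7 at P23 and 1258, 1615, 1587, 1413 and 2324 at P6 (log2 change -7.16, SE 0.18, adjusted p = 3.67e-19). All 3 P23 arrays lay below all 5 P6 arrays. Dlx3, a homeobox factor that activates hair keratin genes, had signals of 422, 340 and 415 at P23 and 3933, 4756, 3961, 4131 and 2868 at P6 (log2 change -3.31, SE 0.12). S100a3, a calcium-binding protein of the hair cuticle, was at 300, 275 and 293 at P23 and 21754, 24720, 23429, 16214 and 12868 at P6. Foxn1, the nude gene, fell by 3.52 on the log2 scale. Lef1, the partner of beta-catenin in the matrix, fell at both of its probe sets (log2 changes -1.46 and -4.31).

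Pigment cell genes fell in 5 of 7 members (median log2 change -1.50). Pmel, the fibril protein of melanosomes, had signals of 401, 427 and 577 at P23 and 1785, 2605, 1891, 1671 and 1778 at P6 (log2 change -2.05, SE 0.19), and Dct, an enzyme of melanin synthesis, had signals of 946, 898 and 1094 at P23 and 3186, 4305, 1900, 2852 and 2531 at P6 (log2 change -1.55, SE 0.21). Both rose on average between P6 and P14, with P14 signals of 3769, 2440 and 3519 for Pmel and 4991, 3699 and 5826 for Dct (log2 change 0.73, limma adjusted p = 0.00638, and 0.74, adjusted p = 0.0122). In both genes the P14 and P6 arrays overlapped. Among other large falls, Gjb2, the gap junction protein connexin 26, had signals of 374, 454 and 388 at P23 and 15491, 15956, 15137, 13140 and 13416 at P6 (log2 change -5.17, SE 0.11). Crym, a thyroid hormone binding protein, fell to 10.5, 11.7 and 8.4 at P23, against 2417, 2634, 2768, 1936 and 1612 at P6. Fbp1, the gluconeogenic fructose-bisphosphatase, fell to 18.2, 7.27 and 12 at P23, against 2505, 3367, 2592, 3047 and 5702 at P6.

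**Figure D2:**
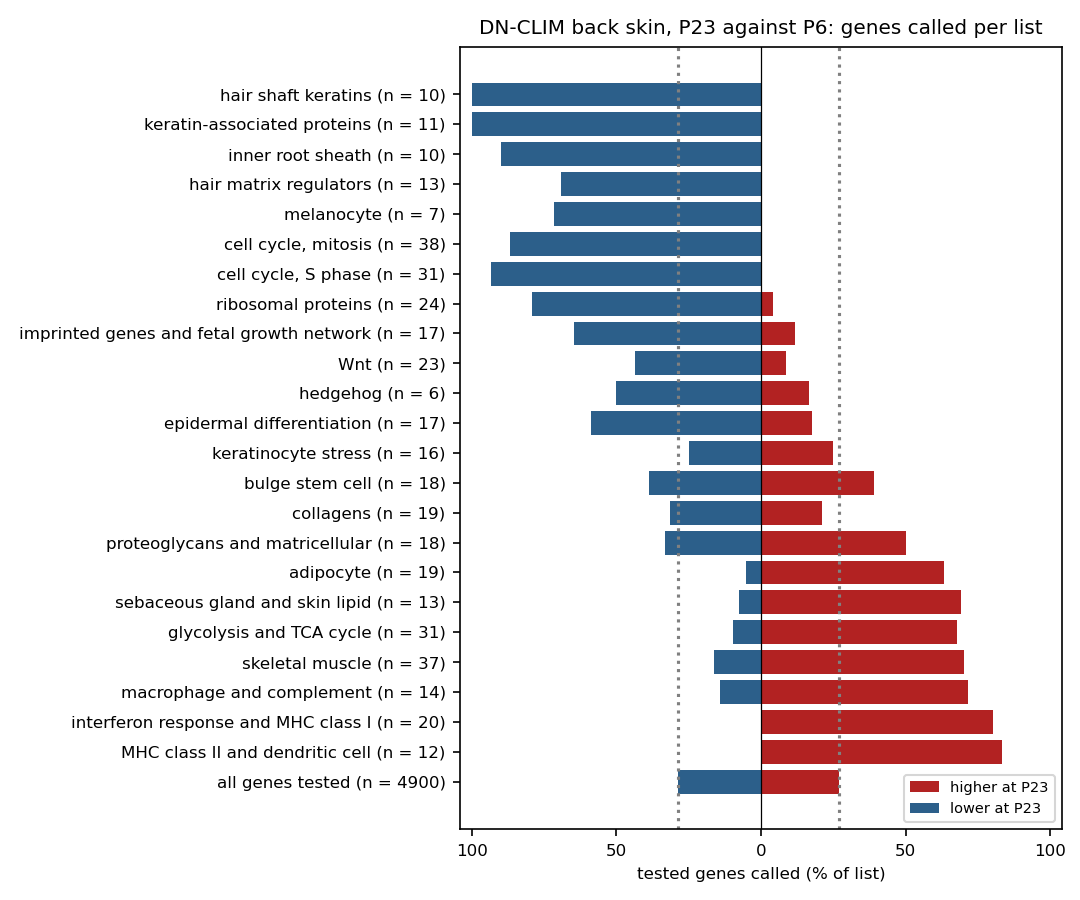
Bars give, for each gene list, the percent of its tested genes that were called higher at P23 (red, to the right) or lower at P23 (blue, to the left) in DN-CLIM skin, with n the genes tested. Dotted lines mark the shares over all 4900 genes, 26.8% higher and 28.7% lower, and hair, cell cycle and ribosomal lists lean left while muscle and antigen presentation lists lean right.

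Cell division genes fell almost throughout. Of 38 mitosis genes 33 fell and 0 rose (median log2 change -1.47), and of 31 S phase genes 29 fell and 0 rose (median -0.81). Cdc20, which switches on the anaphase-promoting complex, had signals of 425, 418 and 421 at P23 and 2651, 2404, 2936, 3098 and 3338 at P6 (log2 change -2.77, SE 0.13, adjusted p = 1.01e-13). Cdk1, the mitotic kinase, had signals of 230, 259 and 236 at P23 and 1333, 1212, 1423, 1207 and 1266 at P6 (log2 change -2.41, SE 0.11). The proliferation antigen Mki67 had signals of 261, 171 and 177 at P23 and 1534, 1395, 1381, 1299 and 1135 at P6 (log2 change -2.75, SE 0.20). In each of these 3 genes the P23 arrays lay below all P6 arrays. At P14 Cdc20 read 1596, 2033 and 2234 and Cdk1 840, 888 and 1175, between the other ages, and Mki67 read 1160, 655 and 1020, which overlapped P6. Ccnb2, a cyclin of mitosis, fell by 2.08 on the log2 scale.

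DNA replication genes fell as well. Mcm7, a subunit of the replicative helicase, had signals of 289, 350 and 390 at P23 and 1344, 1214, 1433, 1188 and 898 at P6 (log2 change -1.82, SE 0.14), and Tk1, thymidine kinase, had signals of 610, 547 and 555 at P23 and 2241, 2416, 2425, 1562 and 1334 at P6 (log2 change -1.77, SE 0.16). Pola1 (-0.23) and Rpa1 (0.23) were the 2 S phase genes that did not pass. Among D cyclins and cell cycle inhibitors the directions were mixed, with 11 of 20 lower and 4 higher, or 7 higher without P6 replicate 5. Ccnd1, cyclin D1, had signals of 831, 674 and 732 at P23 and 2216, 2174, 1679, 2673 and 1901 at P6 (log2 change -1.50), and Mycn, a growth-promoting Myc family factor, had signals of 52, 82.2 and 19.3 at P23 and 639, 559, 584, 425 and 751 at P6 (log2 change -3.74). The 4 that rose were Ccng1 (3.03), Mdm2 (1.52), Myc (0.62) and Btg1 (0.53). The call of Myc was lost without P23 replicate 3 or P6 replicate 1 (limma adjusted p of 0.08 and 0.0504) and with quantile normalization (0.0635). Ccng1 read 1186, 1107 and 1256 at P23 and 130, 169, 115, 152 and 167 at P6, with 185, 186 and 209 at P14. The inhibitor genes Cdkn1a (-0.77) and Cdkn1c (-0.79) fell.

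Promoters of 3 mitosis genes are printed because most genes of this list hold a pair of short motifs. CCAAT (or ATTGG on the other strand) and TTTGAA are in capitals. The letters TTTGAA also make up a form of the cell cycle genes homology region. Cdc20 lies at chr4:118437294-118437593, Cdk1 at chr10:69352863-69353162 and Ccnb2 at chr9:70421505-70421804, all on the minus strand (RefSeq, GRCm38.p6).
Cdc20: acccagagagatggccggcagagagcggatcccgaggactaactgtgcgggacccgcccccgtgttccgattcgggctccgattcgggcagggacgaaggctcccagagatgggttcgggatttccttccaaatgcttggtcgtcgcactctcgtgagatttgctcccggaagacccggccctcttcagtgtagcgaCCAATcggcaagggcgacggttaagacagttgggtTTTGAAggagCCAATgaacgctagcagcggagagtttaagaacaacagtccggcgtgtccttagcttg
Cdk1: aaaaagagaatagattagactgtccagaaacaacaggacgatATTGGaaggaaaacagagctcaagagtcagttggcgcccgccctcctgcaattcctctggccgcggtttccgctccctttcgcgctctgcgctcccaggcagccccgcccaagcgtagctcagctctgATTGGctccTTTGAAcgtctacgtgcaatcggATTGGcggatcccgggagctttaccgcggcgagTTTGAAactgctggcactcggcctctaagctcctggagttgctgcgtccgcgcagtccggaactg
Ccnb2: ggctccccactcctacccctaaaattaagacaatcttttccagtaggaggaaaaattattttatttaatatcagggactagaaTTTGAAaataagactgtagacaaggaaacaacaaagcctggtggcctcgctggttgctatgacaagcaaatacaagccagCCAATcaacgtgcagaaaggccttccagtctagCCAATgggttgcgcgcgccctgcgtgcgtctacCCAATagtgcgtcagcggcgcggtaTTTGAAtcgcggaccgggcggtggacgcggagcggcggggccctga
Of 33 promoters of 30 mitosis genes tested, 26 (78.8%) held CCAAT, 24 (72.7%) held TTTGAA and 22 (66.7%) held both, counting either strand. Over all 32851 promoters the shares were 37.4%, 17.9% and 6.95%. The S phase promoters held CCAAT in 59.5% and TTTGAA in 16.2%. Neither motif was particular to mitosis genes, since the 6 hair shaft keratin promoters held CCAAT in 66.7% and TTTGAA in 83.3%. The TTTGAA of Cdc20 starts 18 bases before the gene start and that of Cdk1 nearest the start lies 15 before it.

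**Figure D3:**
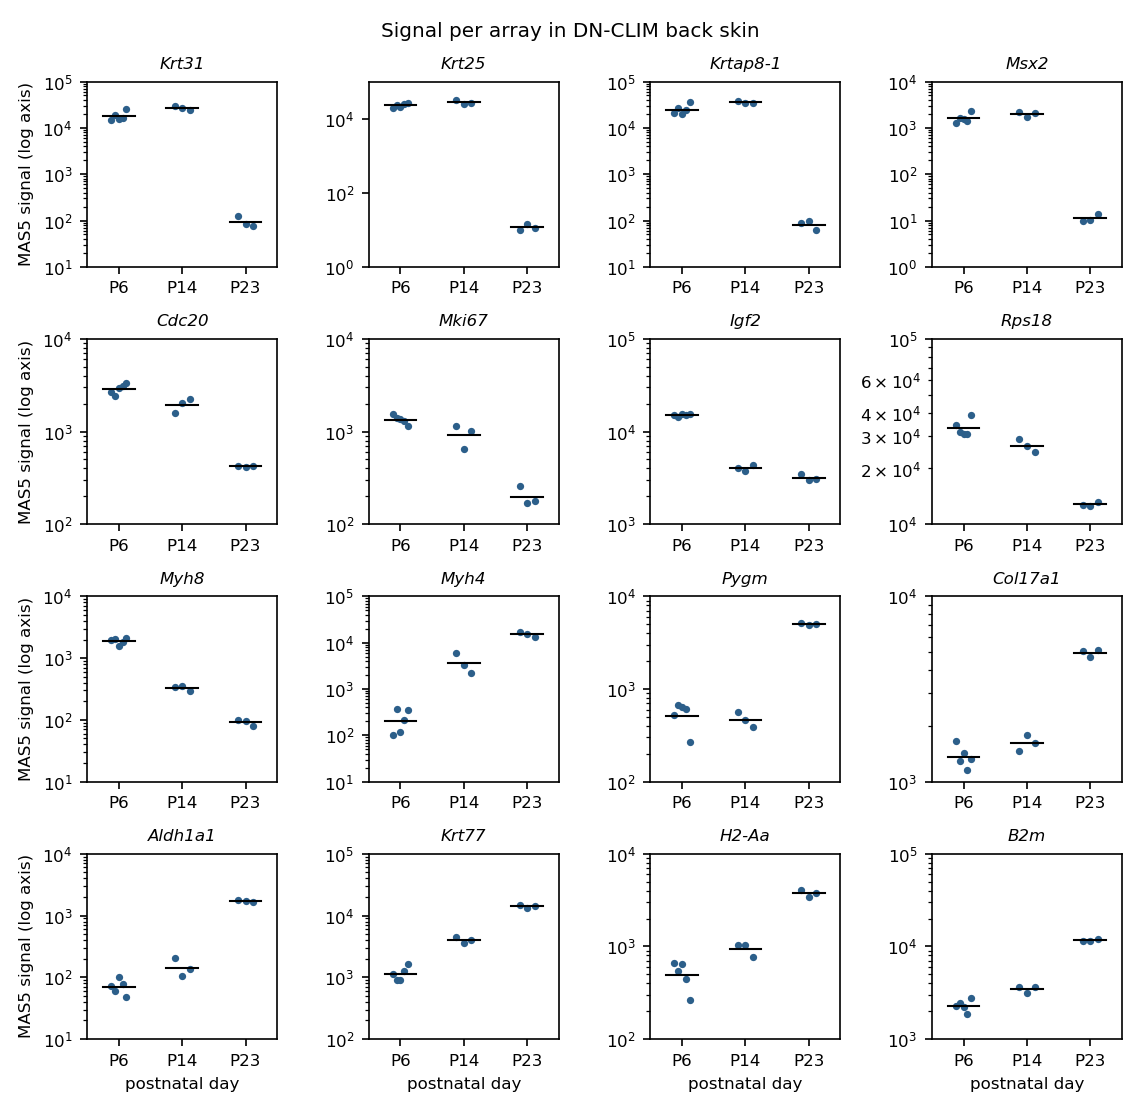
Each panel shows 1 gene in DN-CLIM skin, with the MAS5 signal on a log axis against age, 1 point per array (5 at P6, 3 at P14, 3 at P23) and a line at the geometric mean. Hair genes (top row) hold at P14 and drop by P23, Cdc20 and Mki67 step down, Igf2 and Myh8 are already lower at P14, and Myh4, Krt77, H2-Aa and B2m climb through P14 to P23.

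Epidermal differentiation genes moved in both directions. Of 17 tested, 10 fell and 3 rose (median log2 change -0.67). Flg, the filaggrin of the granular layer, had signals of 2566, 3003 and 4024 at P23 and 21054, 17061, 16814, 17597 and 21890 at P6 (log2 change -2.58, SE 0.17, adjusted p = 2.4e-11). Krt1, the suprabasal keratin, had signals of 7442, 8134 and 9048 at P23 and 33258, 26804, 24673, 23343 and 22028 at P6 (log2 change -1.65, SE 0.16). Both were lower still at P14, at 1218, 1310 and 1253 for Flg and 852, 1349 and 1503 for Krt1, so the P14 arrays lay below both other ages. Ivl, involucrin (-1.59), Lor, loricrin (-1.24), and Krt10 (-1.08) also fell. Krt77, a type II keratin, went the other way, with signals of 14573, 13160 and 14387 at P23 and 1124, 911, 888, 1265 and 1634 at P6 (log2 change 3.63, SE 0.15), and the other 2 that rose were Krt2 (0.70) and Aloxe3 (0.54), a lipoxygenase of the skin barrier. With quantile normalization 6 of the 17 fell and 4 rose, the median was -0.11, and Krt10 (-0.11, adjusted p = 0.552) and Calm4, a calmodulin-like protein of the epidermis that otherwise fell (-1.13), did not pass (adjusted p = 0.582).

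Keratinocyte stress genes, 4 higher and 4 lower of 16, were also mixed, close to the shares over all genes tested (26.8% higher and 28.7% lower). Sprr1a, a cornified envelope precursor, had signals of 4532, 6784 and 7134 at P23 and 37303, 36326, 31353, 36034 and 52835 at P6 (log2 change -2.66, SE 0.15), and Krt17, a keratin of follicles and wounded skin, had signals of 4428, 5139 and 5042 at P23 and 14809, 11838, 13603, 12703 and 9895 at P6 (log2 change -1.36, SE 0.13). Sprr1b (-1.96) and Sprr2h (-1.995) were the other 2 that fell. Serpinb2, a serine protease inhibitor, had signals of 2981, 3045 and 2793 at P23 and 805, 746, 811, 1003 and 928 at P6 (log2 change 1.78), and Sprr2b (1.21), Sprr2i (0.39) and Krt6a (0.35) rose too. The call of Krt6a was lost without P23 replicate 2 or 3 (limma adjusted p of 0.0628 and 0.0969), and that of Sprr2i without P23 replicate 2 (0.06), which left 2 genes of the list higher.

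Genes of the hemidesmosome and the bulge changed in both directions. In the basal keratinocyte list 4 of 13 rose and 3 fell, close to the shares over all genes tested (26.8% higher and 28.7% lower). Col17a1, the transmembrane collagen of the hemidesmosome that is kept by bulge stem cells, had signals of 5044, 4715 and 5110 at P23 and 1659, 1290, 1426, 1163 and 1320 at P6 (log2 change 1.86, SE 0.10, adjusted p = 3.23e-13), with 1469, 1781 and 1607 at P14. All 3 P23 arrays lay above all 5 P6 arrays. Itga6, its integrin partner in the junction (1.30), Plec, plectin (0.83), and Lamb3, a chain of laminin 332 (0.75), rose with it. Lama5, the laminin chain of the growing follicle, had signals of 470, 413 and 589 at P23 and 1645, 1491, 1611, 1519 and 1448 at P6 (log2 change -1.67), and Bnc1, a zinc finger protein of basal keratinocytes, had signals of 161, 147 and 181 at P23 and 395, 455, 361, 378 and 375 at P6 (log2 change -1.27). Itga3 (-0.79) fell too, while Trp63, the master factor of stratified epithelia (0.05), did not pass. The call of Plec was lost without P23 replicate 1 or 3 or P6 replicate 2 or 3 (limma adjusted p of 0.053 to 0.0661).

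Of 18 bulge genes 7 rose and 7 fell, and Col17a1 and Itga6 are in this list as well. Cd34, a surface marker of bulge stem cells and of endothelium, had signals of 1612, 1621 and 1607 at P23 and 462, 582, 597, 374 and 302 at P6 (log2 change 1.85, SE 0.20), with 316, 413 and 297 at P14. Ccn2, a matricellular growth factor, had signals of 1318, 1360 and 1341 at P23 and 271, 175, 248, 341 and 288 at P6 (log2 change 2.37), and Nfatc1, a factor that holds bulge cells quiescent, rose by 0.78. On the falling side were Fst, follistatin (-0.93), Fhl2, a LIM-only cofactor (-1.38), the Wnt receptor gene Fzd2 (-1.17), and Dkk3, a Wnt inhibitor gene (-0.69). S100a6 also fell (-0.78), but with quantile normalization it was at -0.04 (adjusted p = 0.658). In the S100 family as a whole, 2 of 8 rose and 3 fell, near the shares over all genes tested (26.8% higher and 28.7% lower).

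Of 6 hedgehog genes tested, the ligand, a receptor and a target fell. Shh, the ligand made by the matrix, had signals of 142, 104 and 157 at P23 and 574, 423, 461, 502 and 702 at P6 (log2 change -1.98, SE 0.29, adjusted p = 4.78e-06). Ptch1, the receptor that is also a target, had signals of 319, 351 and 353 at P23 and 814, 832, 727, 925 and 982 at P6 (log2 change -1.32, SE 0.12) and fell by less at another probe set (0.49). Gli1, the transcription factor and target at the end of the pathway, had signals of 108, 102 and 91.3 at P23 and 630, 612, 603, 660 and 437 at P6 (log2 change -2.54, SE 0.19). These were the 3 of 6 tested that fell, and Gas1, a coreceptor, rose (0.78), or 1 of 2 without P6 replicate 5.

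In the Wnt list 10 of 23 fell and 2 rose. Wnt5a, a ligand of the dermal papilla, had signals of 42.1, 123 and 75.1 at P23 and 348, 302, 160, 454 and 630 at P6 (log2 change -2.24, SE 0.33), and Wnt4 (-1.10), the receptor Fzd2 and the cytoplasmic relay Dvl1 (-0.96) fell with Lef1. Sfrp2, a secreted Wnt antagonist (0.83), and the receptor Fzd4 (0.51) were the 2 that rose. Of 23 BMP, TGF-beta and activin genes 9 fell and 4 rose. The inhibitory Smad6 had signals of 247, 250 and 185 at P23 and 808, 850, 876, 965 and 1355 at P6 (log2 change -2.08), and the BMP targets Id1 (-0.77) and Id3 (-1.14) and the ligand Bmp7 (-1.13) fell. Bmp4 was at -0.41 at its brighter probe set and 0.999 at another, so its direction differs between probe sets. Tgfbi, an extracellular protein induced by TGF-beta, had signals of 2439, 2472 and 2751 at P23 and 514, 475, 555, 426 and 459 at P6 (log2 change 2.40, SE 0.13), and Smad4 (0.75), Tgfbr3 (0.47) and Twsg1 (0.46) rose. The call of Bmp4 was lost without P23 replicate 2 (limma adjusted p = 0.118), and that of Tgfbr3 without P23 replicate 2 or 3 or P6 replicate 1 or 5 (0.054 to 0.09) or with quantile normalization (0.0685). Of 15 Notch genes 6 rose and 3 fell, with Notch1 at -1.22 at its brighter probe set and -0.09 at another, Notch2 at 0.92 and Notch3 at 0.71.

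Skeletal muscle genes mostly rose, while myosin forms changed in opposite directions. Back skin includes a thin sheet of striated muscle, the panniculus carnosus. Of 37 tested, 26 rose and 6 fell (median log2 change 1.44). Myh4, the fast IIb myosin heavy chain, had signals of 17028, 15114 and 13584 at P23 and 104, 371, 117, 211 and 351 at P6, the largest rise of all (log2 change 6.24, SE 0.36, adjusted p = 2.52e-12). Myh1, the IIx form, had signals of 7550, 7333 and 7863 at P23 and 830, 982, 832, 948 and 874 at P6 (log2 change 3.09, SE 0.10). Myh8, the perinatal form, had signals of 101, 96.1 and 80.5 at P23 and 1944, 2055, 1569, 1839 and 2137 at P6 (log2 change -4.36, SE 0.21). In all 3 genes the P14 signals lay between the other ages (6023, 3369 and 2251 for Myh4, 2641, 2214 and 2719 for Myh1 and 342, 353 and 290 for Myh8). Embryonic myosin Myh3 was too dim to test.

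Pygm, muscle glycogen phosphorylase, had signals of 5166, 4951 and 5013 at P23 and 521, 667, 638, 602 and 271 at P6, with 559, 466 and 391 at P14 (log2 change 3.29, SE 0.21). Atp2a1, the fast calcium pump, had signals of 19590, 18218 and 18826 at P23 and 4008, 3904, 3478, 3818 and 3491 at P6 (log2 change 2.34). Ckmt2, mitochondrial creatine kinase (3.14), Pgam2 (2.91), Ckm (2.50) and the fast troponin T gene Tnnt3 (2.30) rose as well. Beside Myh8 the genes that fell included the slow troponin Tnni1 (-1.32) and the embryonic light chain Myl4 (-0.56). Mstn, the muscle growth inhibitor myostatin, read 1478, 982 and 1237 at P23 and 64.1, 177, 160, 195 and 141 at P6. Summed signals of 6 muscle markers were 47000 to 50800 at P23 and 18200 to 25000 at P6, and how far the share of muscle in the sampled skin accounts for changes in genes that muscle shares with other tissue was not tested.

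Antigen presentation genes mostly rose in both classes. Of 12 MHC class II and dendritic cell genes 10 rose and 0 fell (median log2 change 1.98), and of 20 MHC class I and interferon response genes 16 rose and 0 fell (median 1.28). H2-Aa, a class II alpha chain, had signals of 4037, 3379 and 3791 at P23 and 660, 540, 651, 449 and 261 at P6 (log2 change 2.94, SE 0.21, adjusted p = 7.89e-11). Cd74, the invariant chain that escorts class II molecules, had signals of 8171, 7027 and 8646 at P23 and 1390, 1216, 1661, 1048 and 646 at P6 (log2 change 2.80, SE 0.22). All 3 P23 arrays lay above all 5 P6 arrays. H2-Ea read 2803, 2136 and 1565 at P23 and 60, 52.5, 16, 213 and 157 at P6 (log2 change 4.91, SE 0.81). B2m, the light chain of class I, had signals of 11465, 11376 and 12123 at P23 and 2295, 2470, 2237, 1853 and 2754 at P6 (log2 change 2.34, SE 0.17), and the class I heavy chain genes H2-K1 (2.10) and H2-D1 (2.51) and the immunoproteasome subunit Psmb8 (2.27) rose. Class I and class II genes have near relatives whose signal the probe sets may share.

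Promoters of 2 class II genes are printed because both hold letters of the X and Y boxes known from this gene family. GCAAC, found in X boxes, and CCAAT in either strand's spelling, found in Y boxes, are in capitals at each match, and a match is not shown to be a box. H2-Aa lies at chr17:34287774-34288073 on the minus strand and H2-Eb1 lies at chr17:34305617-34305916 on the plus strand (RefSeq, GRCm38.p6).
H2-Aa: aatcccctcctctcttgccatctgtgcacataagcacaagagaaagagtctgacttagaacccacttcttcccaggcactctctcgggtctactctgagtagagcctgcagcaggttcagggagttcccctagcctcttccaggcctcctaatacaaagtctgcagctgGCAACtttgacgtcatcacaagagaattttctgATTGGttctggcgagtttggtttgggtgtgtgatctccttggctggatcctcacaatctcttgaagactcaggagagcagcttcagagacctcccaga
H2-Eb1: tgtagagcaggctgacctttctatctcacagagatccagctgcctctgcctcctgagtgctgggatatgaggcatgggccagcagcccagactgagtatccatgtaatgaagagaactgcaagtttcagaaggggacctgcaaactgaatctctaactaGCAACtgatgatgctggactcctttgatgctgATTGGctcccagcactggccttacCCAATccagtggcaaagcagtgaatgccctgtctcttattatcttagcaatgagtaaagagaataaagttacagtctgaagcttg
In the list 6 of 9 promoters held CCAAT (66.7%) and 5 of 9 held GCAAC (55.6%), on either strand, against 37.4% and 35.2% of all promoters. Neither motif was particular to this list. Hair shaft keratin promoters held CCAAT in 66.7% and GCAAC in 50%, and mitosis promoters in 78.8% and 45.5%. The shares were lower in keratin-associated protein (22.2% and 11.1%), muscle (37.5% and 25%) and ribosomal protein promoters (29.6% and 25.9%). H2-Eb1 itself had signals of 2810, 2481 and 2846 at P23 and 584, 392, 686, 448 and 620 at P6 (log2 change 2.34, SE 0.20).

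Macrophage and complement genes rose in 10 of 14 members and fell in 2 (median log2 change 0.79). Lyz2, the lysozyme of macrophages, had signals of 1918, 2183 and 2426 at P23 and 229, 285, 290, 245 and 159 at P6 (log2 change 3.20, SE 0.20), and C1qa, a chain of complement C1q, had signals of 2024, 2110 and 2029 at P23 and 772, 669, 713, 682 and 512 at P6 (log2 change 1.63, SE 0.12). The 2 that fell were C5ar1 (-0.50) and Lgals3 (-0.31), and Lgals3 did not pass with quantile normalization (log2 change -0.12, limma adjusted p = 0.254). Among chemokines, Ccl8 had signals of 1552, 1372 and 1733 at P23 and 43.4, 154, 115, 186 and 96.1 at P6 (log2 change 3.86, SE 0.33) and Ccl9 rose by 3.14, while Cxcl14, an epithelial chemokine, had signals of 253, 277 and 277 at P23 and 1427, 951, 1414, 824 and 441 at P6 (log2 change -1.79). In this list 5 of 10 rose and 2 fell, or 1 without P23 replicate 2 or 3 or P6 replicate 3 or 4. Mast cell genes moved little, with 1 of 5 higher (Cpa3, 0.86) and 1 lower (Kit, -0.48). The chymase Cma1 was at 2170, 2799 and 2545 at P23 and 1832, 2654, 2816, 2179 and 1564 at P6, with overlapping ages, but lower at P14 (842, 649 and 784), and another of its probe sets had the opposite sign (log2 change -0.60, limma adjusted p = 0.305). Of 3 lymphocyte genes tested, 2 rose, Ighm, the immunoglobulin M heavy chain of B cells, with signals of 1121, 1100 and 1047 at P23 and 304, 355, 238, 422 and 417 at P6 (log2 change 1.68), and Thy1 (0.75). The call of Thy1 was lost without any 1 of the P23 arrays or without P6 replicate 4 or 5 (limma adjusted p of 0.0666 to 0.13), and that of Kit without P23 replicate 1 (0.0542).

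Collagen genes had no common direction. Of 19 collagens 4 rose and 6 fell, near the shares over all genes tested (26.8% higher and 28.7% lower). Col1a1, the chain of collagen I, had signals of 22347, 21920 and 24170 at P23 and 27192, 29642, 25848, 27864 and 33213 at P6 (log2 change -0.33, adjusted p = 0.0601), but with quantile normalization it was higher at P23 (log2 change 0.89, adjusted p = 1.51e-07), where 8 collagens rose and 5 fell. It passed as lower with array weights (adjusted p = 0.018), in only the 8 arrays compared (0.0163) and without P6 replicate 3 (0.0496). The basement membrane collagens Col4a1 (-0.92) and Col4a2 (-0.65) fell, and Col11a1, a fibril collagen of developing tissue, had signals of 19.3, 86.9 and 103 at P23 and 429, 303, 358, 527 and 634 at P6 (log2 change -2.97, SE 0.40). Beside Col17a1, Col5a1 (0.59), Col6a1 (0.38) and Col14a1 (0.36) rose. Of 19 collagen processing and elastic fibre genes, 7 rose, 10 did not pass and 2 fell. Lox, which cross-links collagen, had signals of 1064, 1399 and 1535 at P23 and 513, 559, 448, 388 and 395 at P6 (log2 change 1.53), P4ha2, a prolyl hydroxylase subunit, rose by 1.70, and the 2 that fell were P4hb (-0.88) and Fbln2 (-0.55). The call of Col14a1 was lost without P23 replicate 2 (limma adjusted p = 0.06), and that of Fbln2 without P23 replicate 1 (0.0529).

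Of 18 proteoglycan and matricellular genes 9 rose and 6 fell, but 2 or 3 fell without any 1 of the P23 arrays or of P6 replicates 1 to 4. Ogn, osteoglycin, had signals of 1084, 1011 and 746 at P23 and 204, 305, 267, 250 and 250 at P6 (log2 change 1.89, SE 0.18). Dcn, decorin, had signals of 14485, 14791 and 15160 at P23 and 8242, 7838, 7675, 8247 and 7894 at P6 (log2 change 0.89). Tnc, tenascin C, fell by 1.59. Of 16 proteases and inhibitors 11 rose and 3 fell (median log2 change 0.77), among them Serping1, the C1 inhibitor, with signals of 4176, 3962 and 3676 at P23 and 888, 825, 898, 758 and 587 at P6 (log2 change 2.33, SE 0.12), and the cathepsins Ctss (2.25) and Ctsk (1.57). The 3 that fell were Ctsb (-0.50), Ctsl (-0.47) and Plat (-0.42), the last of which did not pass without P23 replicate 3 (limma adjusted p = 0.14). With quantile normalization Ctsb did not pass (log2 change -0.16, adjusted p = 0.29). Igfbp3, an IGF carrier of the dermal papilla, had signals of 2243, 2077 and 2449 at P23 and 454, 369, 404, 439 and 376 at P6 (log2 change 2.47, SE 0.19). It was the 1 dermal papilla gene of 7 that rose, or 1 of 2 without P6 replicate 1 or 5. More of that list fell, 4 of 7 (median log2 change -0.37), among them Wnt5a (-2.24), or 2 to 4 with 1 array left out.

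Lipid genes of fat and sebaceous glands mostly rose. Of 19 adipocyte genes 12 rose and 1 fell (median log2 change 0.78), and of 13 sebaceous and skin lipid genes 9 rose and 1 fell (median 0.77), with Fasn and Scd1 in both lists. Thrsp, a regulator of fatty acid synthesis, had signals of 2233, 3093 and 2293 at P23 and 169, 226, 153, 327 and 163 at P6 (log2 change 3.66, SE 0.30). Scd1, a fatty acid desaturase, had signals of 15960, 15557 and 16759 at P23 and 5890, 5347, 5918, 5625 and 5463 at P6 (log2 change 1.51), and its P14 signals of 9069, 16720 and 14248 were already above P6. Adipoq, adiponectin, rose by 0.50. The adipocyte gene that fell was Apoe (log2 change -0.92), whose direction turned with quantile normalization (0.14, adjusted p = 0.208), and the lipid gene that fell was Fabp5 (-0.36), or 1 of 2 without P6 replicate 2. Cholesterol synthesis had no common direction, with 3 of 14 higher and 2 lower, 1 higher without P23 replicate 1 or 2 and 4 lower without P6 replicate 5. Msmo1 rose by 1.36, and Sqle (-0.57) and Mvd (-0.50) fell.

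Fetal growth genes mostly fell. Of 17 imprinted and fetal growth genes 11 fell and 2 rose (median log2 change -0.71). Igf2, the fetal insulin-like growth factor, had signals of 3529, 3000 and 3073 at P23 and 14984, 14232, 15305, 15108 and 15364 at P6 (log2 change -2.23, SE 0.11, adjusted p = 2.64e-13), and most of the fall was present at P14 (4016, 3795 and 4413). Dlk1, an imprinted membrane protein of precursor cells, had signals of 850, 883 and 900 at P23 and 3561, 3864, 3878, 2968 and 2749 at P6 (log2 change -1.94, SE 0.16), with 572, 737 and 459 at P14. Mest (-1.91), Meg3 (-1.27) and Peg3 (-0.90) fell too. Dcn and Gatm (1.54), a creatine synthesis enzyme, were the 2 that rose, and 4 rose without P6 replicate 5. Of 10 IGF genes 4 rose and 5 fell, among them the carrier Igfbp2 (-1.67) and Igf1 (-0.53) on the falling side and Ghr, the growth hormone receptor gene (0.93), on the rising side, and 3 fell without P23 replicate 2.

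Ribosomal protein genes fell in 19 of 24 members and rose in 1, Rpl22 (1.14), or 2 without P6 replicate 5, with a median log2 change of -0.98. Rps18 had signals of 12670, 12575 and 13251 at P23 and 34118, 31339, 30678, 30735 and 38792 at P6 (log2 change -1.36, SE 0.09). The size depends on scaling, since with quantile normalization the median was -0.25, with 13 lower and 2 higher. Mitochondrial respiratory chain genes, 11 of 54 higher and 16 lower, were near the shares over all genes tested (26.8% higher and 28.7% lower). Their median was -0.05, or 0.05 with quantile normalization (16 higher, 11 lower). Glycolysis and TCA cycle genes rose in 21 of 31 members and fell in 3 (median 0.71), with the muscle forms Pfkm (2.51), Pgam2 and Eno3 (2.01) at the top. Hk1, the hexokinase of many tissues, had signals of 4152, 3851 and 5000 at P23 and 13032, 11928, 14373, 14240 and 18166 at P6 (log2 change -1.72), while Hk2, the form of muscle and fat, rose by 1.19.

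Of 36 xenobiotic and oxidative stress genes 20 rose and 8 fell, and of 11 retinoid genes 5 rose and 0 fell, or 2 fell without P6 replicate 3. Aldh1a1, which makes retinoic acid from retinaldehyde, had signals of 1810, 1728 and 1682 at P23 and 73.2, 60.5, 101, 79.1 and 48.7 at P6 (log2 change 4.63, SE 0.22, adjusted p = 1.23e-13), with 203, 105 and 137 at P14. Cyp2e1, a cytochrome P450, had signals of 3320, 3805 and 2882 at P23 and 342, 343, 281, 450 and 262 at P6 (log2 change 3.33), and Gpx3, the secreted glutathione peroxidase, had signals of 7037, 7937 and 6343 at P23 and 1063, 947, 604, 852 and 416 at P6 (log2 change 3.27). Metallothionein Mt2 fell, with signals of 6745, 6578 and 7511 at P23 and 17044, 18219, 16830, 17025 and 20959 at P6 (log2 change -1.37), as did Mt1 (-0.61) and the epithelial Mt4 (-1.80). The other retinoid genes that rose were Adh1 (1.16), Adh7 (0.80), Rbp4 (1.21) and Rarres2 (1.28).

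Stress, immediate early and clock genes were divided. Of 23 immediate early genes 11 rose and 9 fell. Cebpd had signals of 1917, 2519 and 2914 at P23 and 367, 372, 404, 291 and 497 at P6 (log2 change 2.67). Dusp1, a MAP kinase phosphatase, rose by 2.60 and Klf9 by 2.10, while Egr1 (-0.95), Jun (-0.94) and Dusp6, an inhibitor of ERK (-1.67), fell. Of 15 clock genes 6 rose and 4 fell. Nr1d2 had signals of 1169, 983 and 1087 at P23 and 221, 197, 189, 227 and 207 at P6 (log2 change 2.37, SE 0.12), and Per1 (2.21), Nr1d1 (1.28) and Tef (0.98) rose, while Csnk1d (-1.43), Csnk1e (-1.55), Cry1 (-0.63) and Timeless (-0.44) fell. The hour of sampling is not given in the labels. Of 32 heat shock and chaperone genes 12 rose and 5 fell, or 3 fell without P23 replicate 3 or P6 replicate 4, with Cryab at 1.29, Hsph1 at 1.20 and Hspa2 at -1.16.

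Lists of other cell types held genes of both directions, against 26.8% of all genes tested that rose and 28.7% that fell. The share of endothelial genes that rose was near that of all genes. Of 10 Schwann cell genes 5 rose and 2 fell, with the myelin genes Mbp at 1220, 1169 and 1047 at P23 and 312, 386, 247, 259 and 230 at P6 (log2 change 2.02, SE 0.20) and Pmp22 at 1.64, and Ncam1 (-0.69) and Egr2 (-0.65) lower. Of 16 endothelial genes 5 rose and 2 fell, with Cd34 and Emcn (0.95) among the higher and Edn1 (-1.09) and Sox18 (-0.61) lower, the last at its brighter probe set and not at another (-0.13, limma adjusted p = 0.436), and 3 rose without P23 replicate 2 or 3 or without P6 replicate 2 or 4. Sox18 was lowest at P14 (227, 229 and 212). Of 11 smooth muscle and pericyte genes 5 rose and 2 fell, or 1 without P23 replicate 1 or 2 or P6 replicate 1, 2 or 3. Myh11, the smooth muscle myosin, had signals of 900, 643 and 728 at P23 and 146, 181, 143, 146 and 84.2 at P6 (log2 change 2.46). Of 12 erythroid genes 1 rose, Tspo2 (0.68), or 2 without P6 replicate 4, and 6 fell, with Car2, a carbonic anhydrase, at -0.83 and Slc4a1, the anion exchanger of red cells, at -0.66.

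The CLIM genes and their partners also changed with age. Ldb1, which encodes a CLIM cofactor that the transgene is built to block, had signals of 647, 640 and 665 at P23 and 1369, 1338, 1190, 1185 and 1387 at P6 (log2 change -0.99, SE 0.13, adjusted p = 1.28e-06). Its P14 signals were 902, 568 and 581, all below P6, with 1 above and 2 below the P23 arrays. All 3 P23 arrays lay below all 5 P6 arrays. Whether the Ldb1 probe set also reads the transgene was not tested. The other CLIM gene, Ldb2, had signals of 1039, 983 and 807 at P23 and 836, 798, 777, 897 and 907 at P6 (log2 change 0.16, adjusted p = 0.269), and the ages overlapped. Lmo4, a LIM-only partner, had signals of 949, 1039 and 971 at P23 and 1325, 1355, 1228, 1327 and 2398 at P6 (log2 change -0.58, SE 0.15). Of 19 CLIM and LIM domain genes 7 rose and 7 fell. The largest rises were of LIM proteins of striated muscle, Ldb3 (2.20) and Fhl1 (1.42), and Rlim, the ubiquitin ligase that degrades CLIM, fell (-0.61).

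The change with age was then set against that of wild-type littermates, which share no arrays with DN-CLIM skin. In wild type 3351 probe sets (54%) passed between P23 and P6. The test of the difference, the age change in DN-CLIM minus that in wild type, called 1 of 6211 probe sets (0.0161%), that of Fst, and 303 (4.88%) had an unadjusted p under 0.05. A gene that misses this threshold is not shown to change alike in the 2 genotypes. The median log2 changes of lists were -5.08 in DN-CLIM and -5.24 in wild type for shaft keratins, -1.47 and -1.43 for mitosis, 1.44 and 1.77 for muscle, and 1.98 and 2.09 for MHC class II.

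**Figure D4:**
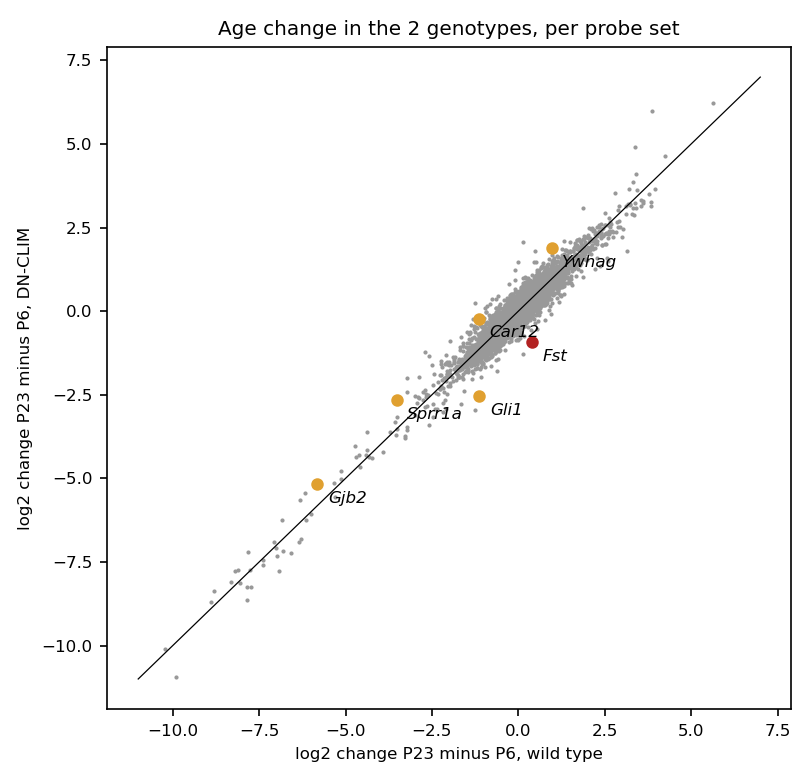
Each point is 1 of the 6211 probe sets tested, with the log2 change (P23 minus P6) in DN-CLIM skin on the y axis and that in wild-type skin on the x axis, and the line marks equal change. Fst (red) passed the test of the difference at an adjusted p of 0.0394, and the 5 genes in gold are among the 10 with the smallest p and did not pass.

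Fst encodes follistatin, an extracellular inhibitor of activin and some BMPs. In DN-CLIM skin it had signals of 312, 369 and 321 at P23 and 771, 639, 501, 590 and 714 at P6 (log2 change -0.93, SE 0.16, adjusted p = 3.52e-05). In wild-type skin it had 725, 656 and 725 at P23 and 608, 529, 579, 415 and 569 at P6 (log2 change 0.39, adjusted p = 0.0423). The 3 P23 arrays thus lay below all P6 arrays in DN-CLIM skin and above all P6 arrays in wild type. The difference was -1.32 (SE 0.22, adjusted p = 0.0394). This call was lost in 12 of 16 runs with 1 array left out (adjusted p of 0.0608 to 0.208), without the filter on dim probe sets (0.0703) and with the Xist class as a covariate (0.0726), while the difference stayed between -1.40 and -1.23.

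Other genes with a small p for the difference did not pass, and of these Gli1 and Car12 were the closest to the threshold. Gli1 fell in both genotypes, by 2.54 in DN-CLIM and by 1.13 in wild type (difference -1.41, SE 0.27, adjusted p = 0.0632). Its wild-type signals were 259, 253 and 237 at P23 and 629, 491, 498, 557 and 558 at P6. Without P6 replicate 5 of DN-CLIM the adjusted p was 0.0427. Car12, a carbonic anhydrase, was at -0.22 in DN-CLIM and -1.13 in wild type (difference 0.91, adjusted p = 0.0632, and 0.044 without P6 replicate 3 of DN-CLIM). Sprr1a fell by 2.66 in DN-CLIM and by 3.52 in wild type (difference 0.86, adjusted p = 0.397). Ywhag, a 14-3-3 protein, rose by 1.88 in DN-CLIM and by 0.97 in wild type at its brighter probe set (difference 0.91, adjusted p = 0.391), while another was at 0.39 in DN-CLIM (adjusted p = 0.102).

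**Figure D5:**
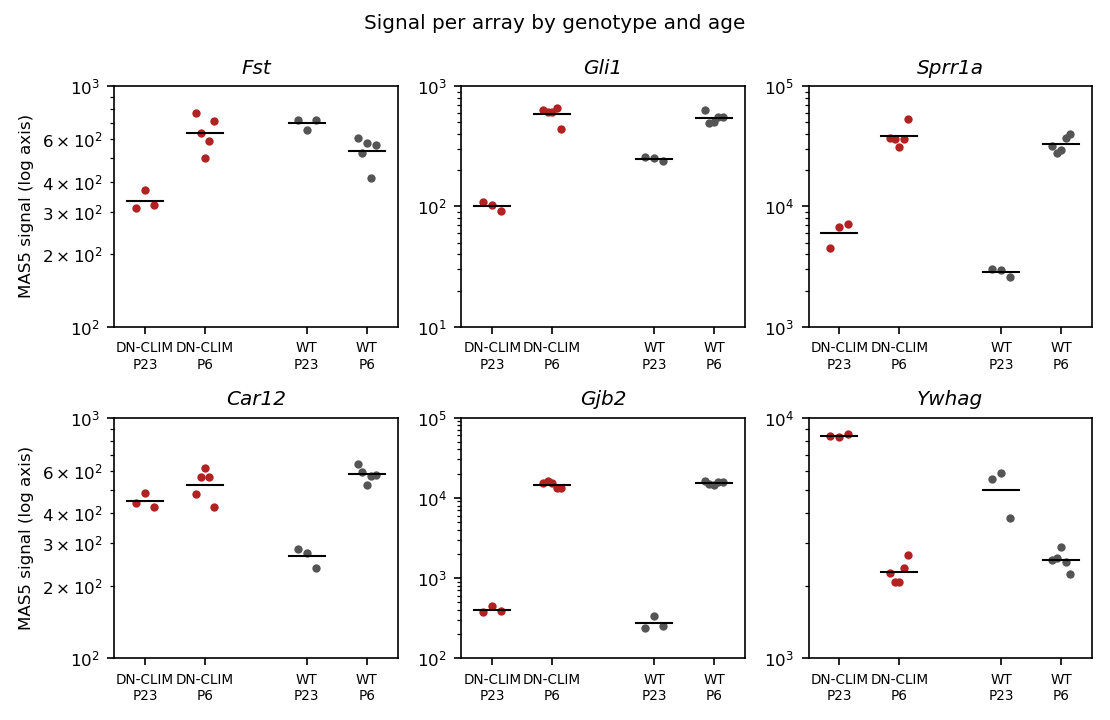
Each panel shows 1 of the genes with the smallest p in the test of the difference, with the MAS5 signal on a log axis, 1 point per array (3 at P23 and 5 at P6 in each genotype) and a line at the geometric mean. DN-CLIM arrays are red and wild-type arrays grey, and Fst at P23 lies at 312 to 369 in DN-CLIM, below the P6 arrays, and above the P6 arrays in wild type.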

How the data were processed

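Back skin RNA of DN-CLIM and wild-type mice at P6, P14 and P23 was hybridised to 1-colour arrays. The deposited values are MAS5 intensity signals on a linear scale with no detection calls, per the submitters' processing notes and the values themselves, with no MAS5 version given in the sources used here. A log scale had been assumed for the deposited values, and log2 was taken here instead. Each array's trimmed mean (2% at each end) was 500.2 to 500.3, and array medians of log2 signal were 7.56 to 7.80. Of 12488 probe sets, 66 controls were left out. Of the other 12422, 10833 had 1 gene, 396 several and 1193 none, and 0 of 10817 symbols looked up were changed. The 6211 probe sets with a mean log2 signal of at least 7.67 (signal 203) were tested, 5637 with 1 gene, for 4900 genes, each represented by its brightest probe set. Where other tested probe sets of a gene named by the rule given below disagreed in call or sign, this is said beside the gene. For genes chosen outside that rule no such statement is made.

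A linear model over all 22 arrays in 6 groups was fitted with limma 3.58.1 in R 4.3.3 (eBayes with a trend), with Benjamini-Hochberg adjustment over the probe sets tested and a threshold of 0.05, two-sided. Adjusted p-values in the text are from limma. The fitting step was tested on simulated data. No count was taken, so the number of arrays limits the precision. The members and 47 gene lists were chosen with earlier results of these data known. Genes named are a selection from the 15 largest rises and falls with no overlap between ages, the members with the smallest p in a list (5 at most), a fixed set of genes, and 10 genes with the smallest p for the difference between genotypes. Outside that rule, these were chosen after their values were seen: Adipoq, Aloxe3, Btg1, C5ar1, Cdkn1a, Cdkn1c, Col14a1, Col5a1, Col6a1, Cry1, Ctsb, Ctsl, Dkk3, Egr1, Egr2, Fabp5, Fbln2, Foxn1, Fzd4, Gata3, Id1, Id3, Igf1, Itga3, Ivl, Jun, Krt10, Krt2, Krt6a, Lgals3, Lor, Meg3, Mest, Mt1, Mt4, Myc, Myl4, Nfatc1, Nr1d1, P4hb, Peg3, Plat, Plec, Pola1, Rlim, Rpa1, Rpl22, Sfrp2, Smad4, Sprr2b, Sprr2i, Tgfbr3, Timeless, Tnni1, Tnnt3, Trp63, Twsg1. Alternatives were quantile normalization, 50 added to each signal, no filter, array weights, a replicate block, fewer arrays and each array left out. The Xist class as a covariate was added after seeing the data. Promoters are from RefSeq, GRCm38.p6.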

Additional observations from a re-analysis of the deposited data

Results flagged for a closer look

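Of 211 named genes, 15 had a DN-CLIM P6 array standing apart from the other 4, and 12 of these arrays were replicate 5. Chance flags about 1 in 20 groups.

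Replicate 5 was low for 10 genes. Among muscle and metabolic genes, Pygm had a signal of 271 against 521 to 667 on the other P6 arrays, Pfkm 484 against 783 to 809, Eno3 1089 against 2179 to 2480, and Tnni1 551 against 721 to 757. Among growth and signalling genes, Gli1 had 437 against 603 to 660, Egr1 730 against 1313 to 1626, Igf1 1367 against 1623 to 1699 and Peg3 2583 against 3869 to 4462. Adh7 had 655 against 1097 to 1313, and Rpl22 had 161 against 474 to 593. Replicate 5 was high for Lmo4, at 2398 against 1228 to 1355, and for Pola1, at 235 against 197 to 206.

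The other 3 were Pmel on replicate 2, at 2605 against 1671 to 1891, Fzd4 on replicate 3, at 695 against 1149 to 1366, and Krt6a on replicate 1, at 9789 against 6624 to 7258. The age change of Fst differed between DN-CLIM and wild-type skin by -1.32 on the log2 scale in the test of the difference.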

How the results depend on the processing

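The count of probe sets that differed between P23 and P6 in DN-CLIM skin (3406) was 3418 with quantile normalization, 3431 with 50 added, 4417 of 12422 without the filter, 3945 with array weights, 3150 in only the 8 arrays compared, 3170 in only the DN-CLIM arrays, 3493 without P6 arrays 4 and 5 together, 2982 with only those 2 at P6, and 3274 with the Xist class. With 1 array left out it was 2962 to 3580, with 1434 to 1728 higher and 1528 to 1852 lower. The numbers of the arrays do not pair the P23 and P6 samples of DN-CLIM skin (correlations of the deviations of same-numbered arrays 0.005, -0.007 and 0.004). Between genotypes at P23, each DN-CLIM array correlated best with the wild-type array of its number (0.136, 0.056 and 0.249). At P6 replicates 1 and 5 did so (0.13 and 0.086), and replicates 2, 3 and 4 did not. The main fit treats all arrays as independent. With the replicate block 3416 were called and 1 for the difference between genotypes. That difference, 1 probe set (0 higher, 1 lower), was called for 5 with quantile normalization (3 higher, 2 lower), 4 with array weights (2 higher, 2 lower), 0 without the filter (0 lower) and 0 with the Xist class (0 lower), and for 0 to 4 with 1 array left out (0 to 1 higher, 0 to 3 lower). Gli1, Car12, Sprr1a and Ywhag passed with quantile normalization (adjusted p of 0.0323, 0.0351, 0.0118 and 0.0323), the first 3 also with array weights (0.0134, 0.0134 and 0.0493), and Gjb2 without WT P23 replicate 2 (0.0253). Of 3793 repeats over 211 genes, 3720 kept direction and call, 63 lost the call, 7 gained one and 3 turned direction, which were Col1a1 (0.89) and Apoe (0.14) with quantile normalization and Cma1 (-0.026) with the replicate block. The causes were not tested. The largest falls end near the array floor, where size is nominal.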
